A study of Homo sapiens with 7 samples.

Results

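The PLZF/RARA-expressing derivative of the human monocytic line U937 was compared with the parental line, both in zinc, over all genes. The comparison used 5 of the 7 libraries of the study, with 2 of the derivative against 3 of the parental line. MT_mock was U937 MT, the parental cells, given ZnSO4 at 0.1 mM, with 3 libraries. B412_mock was U937 B412, which makes the PLZF/RARA fusion when exposed to zinc, given the same dose, with 2 libraries. For B412 cells the treatment protocol gives 24 h of zinc before the treatment and 96 h of treatment with zinc; no such times are given for MT cells. The other 2 libraries, B412 cells that had GSK126 at 2.5 µM in addition, are not part of the comparison. They entered the filter, the normalization and the fit, and so bear on the fitted differences as well as on the spread between libraries. The labels do not say whether B412 is 1 clone, which promoter drives the fusion, or whether replicates were grown apart. The p-values therefore rest on a spread between libraries that may be technical only. B412 cells without zinc are not analysed here, and the fusion and other differences between the lines cannot be told apart.

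PLZF, encoded by ZBTB16, is a zinc finger protein that represses transcription by recruiting histone deacetylase and Polycomb complexes. RARA is the retinoic acid receptor alpha, which binds DNA as a partner of RXR and activates its targets when retinoic acid is present. The fusion joins the repressor domain of PLZF to the DNA-binding and ligand-binding parts of RARA, and is found in a rare acute promyelocytic leukaemia in which retinoic acid has little effect. U937 cells were first grown from a histiocytic lymphoma, resemble monocytic precursors, carry granule genes of the promyelocyte stage and are widely used to study myeloid differentiation.

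Total counts lay between 12736244 and 14848130 per library, and 14727 to 15994 genes had a count. A level is given in CPM, a gene's counts relative to its library's total, and 3 counts stood for 0.202 to 0.236 CPM. The libraries fell into 2 sets that cross the lines. Set 1 held MT_mock replicates 1 and 2 and B412_mock replicate 1, and set 2 held MT_mock replicate 3 and B412_mock replicate 2. MALAT1, a nuclear noncoding RNA, was at 2500 to 4320 CPM in set 1 and at 91 to 159 CPM in set 2. No label names a batch. The set therefore entered the fit as an additive term, and the difference within set 1 and then within set 2 is given beside a fitted one with its SE; these 2 differences share no library. The sets were taken from the same counts, so p-values with the term may be too small. ZBTB16 had 4, 0 and 0 counts in MT_mock and 22 and 28 in B412_mock, and did not pass (log2 difference 4.08 ± 1.24 SE, edgeR adjusted p = 0.126, within sets 3.0 and 3.82); it passed without MT_mock replicate 1, the only parental library with ZBTB16 counts (adjusted p = 0.0286). RARA and EZH2, with log2 differences of -0.05 ± 0.20 and -0.08 ± 0.21, did not pass either (edgeR adjusted p = 0.944 and 0.908). Within the sets the differences were -0.16 and 0.10 for RARA and -0.22 and 0.22 for EZH2. Counts per gene cannot separate reads of the fusion from those of ZBTB16 or RARA themselves. They therefore do not give the level of the fusion in these libraries. Of 9 monocytic markers 7 had enough counts to be tested, and the 9 summed to 374 to 972 CPM in MT_mock and 350 to 860 CPM in B412_mock. The sum hides a spread: 4 of the tested markers were positive and 3 negative, with log2 differences from -1.63 to 2.45. Only CD68 was called, as lower. The 4 T cell markers summed to at most 0.0742 CPM in any of the 5 libraries, and CD3D, CD3G and CD2 were at 0 in each; the 5 erythroid and megakaryocyte markers summed to at most 0.763 CPM and the 6 fibroblast and epithelial markers to at most 3.4 CPM.

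With the set term, edgeR's quasi-likelihood test called 318 of 13521 tested genes at a Benjamini-Hochberg adjusted p under 0.05, which is 2.35%. Of these, 115 were higher in B412_mock (0.851% of genes tested) and 203 were lower (1.5%). Differences over 4-fold made up 118 of the calls, 38 higher and 80 lower. Differences under 2-fold made up 86, 38 higher and 48 lower. The CPM values of the lines did not overlap in 200 of the 318 called genes and in 1505 of all tested genes (11.1%); the call used these same libraries. Over all tested genes the median log2 difference was -0.01, and 6616 of them were positive and 6905 negative. The same sign within both sets was seen in 64.1% of all tested genes. The number of calls rested on single libraries. It was 33 without B412_mock replicate 1 (0.235% of genes tested) and 57 without B412_mock replicate 2 (0.402%). It was 587 without MT_mock replicate 1 (4.4%), 161 without MT_mock replicate 2 (1.21%) and 205 without MT_mock replicate 3 (1.53%), and 414 and 454 without the GSK126 libraries (2.94% and 3.21%). Of the 318 genes, 23 were called in each of the 7 fits that left out a library. Without the set term no gene passed in edgeR, with 343 at an unadjusted p under 0.05, and limma-voom and DESeq2 with the term called 295 (2.18%) and 684 (5.06%).

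**Figure D1:**
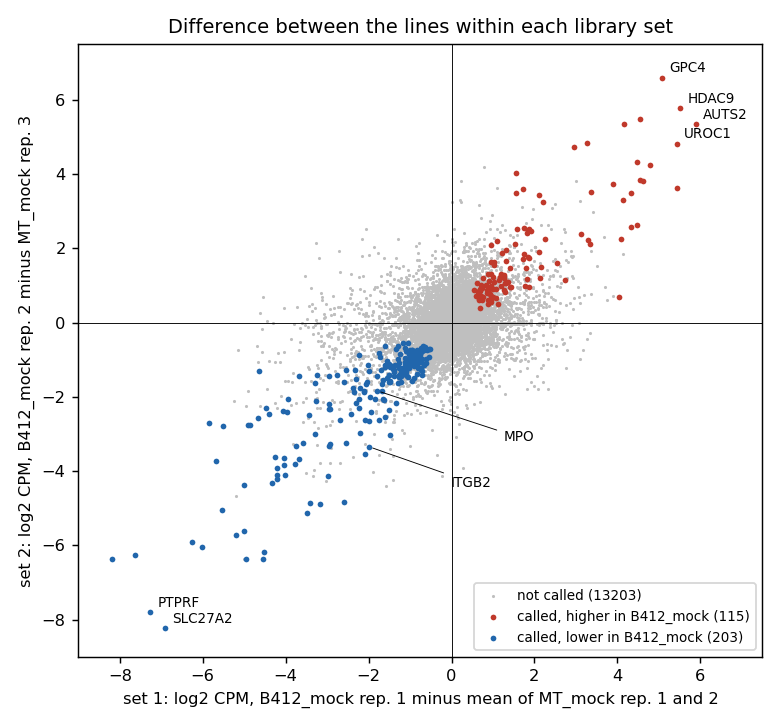
Difference between the lines for each tested gene in log2 CPM (prior count 2), in set 1 on the horizontal axis and in set 2 on the vertical axis. Grey points are the 13203 genes not called, red the 115 called higher and blue the 203 called lower in B412_mock. The called genes lie in the lower left and upper right parts.

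The clearest contrasts were genes read in one line and almost unread in the other. Of 5 genes with at least 100 counts in B412_mock and at most 3 in MT_mock all 5 were called, and of 27 genes with the reverse pattern 18 were called. Over all tested genes the share called was 2.35%. These genes were chosen by counts of the same libraries that the test used, so a high share of calls follows from the choice. AUTS2, a subunit of a variant Polycomb complex, and HDAC9, a class IIa histone deacetylase, were read in B412_mock. GPC4, a glypican of the cell surface, CX3CR1, the receptor for fractalkine that marks monocytes, and GSPT2, a translation termination factor, were the other 3. The upstream sequences of 4 such genes, AUTS2 and HDAC9 from those read in B412_mock and ACTL8 and GALNT14 from those read in MT_mock, are shown because they range from dense to sparse in the dinucleotide CG. Each is the 250 bases before the gene's RefSeq start (GRCh38.p14), on the gene's strand, with every CG in capitals. AUTS2 is at chr7:69598225-69598474 on the plus strand, HDAC9 at chr7:18495499-18495748 on the plus strand, ACTL8 at chr1:17755083-17755332 on the plus strand and GALNT14 at chr2:31138441-31138690 on the minus strand.
AUTS2: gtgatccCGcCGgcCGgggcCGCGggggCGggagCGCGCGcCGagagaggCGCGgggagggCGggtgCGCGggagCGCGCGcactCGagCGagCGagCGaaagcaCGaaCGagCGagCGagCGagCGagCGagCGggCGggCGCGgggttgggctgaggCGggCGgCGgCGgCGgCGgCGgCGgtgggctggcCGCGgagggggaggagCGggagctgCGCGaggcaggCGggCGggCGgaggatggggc
HDAC9: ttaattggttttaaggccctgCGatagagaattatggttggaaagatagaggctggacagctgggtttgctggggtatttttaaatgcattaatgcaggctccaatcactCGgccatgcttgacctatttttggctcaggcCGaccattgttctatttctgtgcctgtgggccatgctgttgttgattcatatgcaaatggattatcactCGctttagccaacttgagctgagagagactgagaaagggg
ACTL8: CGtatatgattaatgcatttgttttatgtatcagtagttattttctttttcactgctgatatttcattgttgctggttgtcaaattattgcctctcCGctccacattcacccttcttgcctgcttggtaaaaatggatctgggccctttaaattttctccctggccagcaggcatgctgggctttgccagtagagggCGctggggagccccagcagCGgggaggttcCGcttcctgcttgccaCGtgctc
GALNT14: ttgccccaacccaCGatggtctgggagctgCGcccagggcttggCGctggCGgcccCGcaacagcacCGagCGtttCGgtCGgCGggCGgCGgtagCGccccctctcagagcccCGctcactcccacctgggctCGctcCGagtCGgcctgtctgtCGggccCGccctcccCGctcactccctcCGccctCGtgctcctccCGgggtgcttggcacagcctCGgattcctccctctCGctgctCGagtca

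The 4 sequences hold 49, 4, 6 and 26 CG. Both lines therefore had genes with dense and with sparse CG before the start among those that only 1 of them read. Over the promoters matched to tested genes (10388, each 250 bases before to 50 after the start), the median was 26 CG. It was 19 CG for 89 called higher genes and 29 CG for 161 called lower genes. The hexamer AGGTCA, the sequence bound by retinoid receptors, occurred on either strand in 9.95% of all these promoters, 14.6% of those of called higher genes and 6.83% of those of called lower genes. Direct repeats of it spaced by 2 or by 5 bases occurred in none of them. HDAC9 has 1 such hexamer in its window, and AUTS2, GPC4, ACTL8 and GALNT14 have 0. A match is a description of letters only, and differences between these shares were not tested.

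Counts are given for MT_mock replicates 1, 2 and 3 and then B412_mock replicates 1 and 2, and CPM values follow the same order throughout. AUTS2 had 0, 0 and 1 counts against 101 and 126, and HDAC9 had 1, 0 and 0 against 95 and 114. GPC4 had 0 in each MT_mock library against 57 and 204. In these genes the 2 B412_mock libraries of different sets both held many reads, and the levels of the lines did not overlap. They were chosen for many counts in one line and few in the other, so the lack of overlap follows largely from the choice. Among all tested genes 11.1% did not overlap. CX3CR1 had 0, 0 and 3 counts against 15 and 148, a ratio of 85.6 (exact 95% counting interval 28.8 to 419), and its B412_mock reads came mainly from replicate 2. GSPT2 had 0, 0 and 1 against 73 and 37, a ratio of 173 (30.4 to 6904). Counting intervals and floors cover counting error only, since no molecular identifiers are named. The fitted log2 differences were 5.70 ± 0.78 (SE) for CX3CR1 (edgeR adjusted p = 0.00409, within sets 3.27 and 4.83) and 7.07 ± 0.88 for GSPT2 (adjusted p = 0.00209, within sets 5.43 and 3.62).

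In the other direction, B412_mock had few or no reads of genes with varied functions. ACTL8, an actin-like gene otherwise typical of testis and tumours, had 657, 523 and 322 counts against 0 and 2. GALNT14, which starts mucin-type O-glycans, had 460, 353 and 376 against 0 and 3. SLC27A2, which activates and imports long fatty acids, had 326, 177 and 608 counts in MT_mock, and PTPRF, a transmembrane phosphatase of cell contacts, had 427, 227 and 451; both had 0 in each B412_mock library. Every MT_mock library thus held far more reads of these 4 genes than any B412_mock library, which follows largely from the rule that chose them. GTF2IRD1, a transcription factor of the TFII-I family, had 68, 55 and 165 counts against 0 and 0, and was at least 30.5-fold lower in B412_mock against a floor of 3 counts per library (edgeR adjusted p = 0.00305). CD276, an immune checkpoint ligand, had 55, 95 and 106 counts against 0 and 0, at least 27.1-fold lower (adjusted p = 0.00477). CYB5A, cytochrome b5, had 58, 34 and 147 counts against 0 and 0, at least 25.3-fold lower (adjusted p = 0.0041). These 3 genes were unread in both sets of the derivative. COL27A1, a fibrillar collagen, had 78, 103 and 12 counts against 0 and 0, at least 20.4-fold lower (adjusted p = 0.00984), with few reads in set 2 of either line. KRT17, a keratin, had 286, 17 and 50 counts against 0 and 0 and was not called (adjusted p = 0.247; 0.0305 without MT_mock replicate 1 and 0.0356 without MT_mock replicate 2). Of the 13 called genes with counts in these 2 directions, GTF2IRD1 and CD276 lost the call without MT_mock replicate 3 (adjusted p 0.0533 to 0.0782), GSPT2 and COL27A1 without B412_mock replicate 1 (0.0613 to 0.331), and CX3CR1 and CYB5A without B412_mock replicate 2 (0.0734 to 0.091). In the B412 libraries with GSK126, AUTS2 had 110 and 112 counts, HDAC9 75 and 96, CX3CR1 27 and 115, GTF2IRD1 0 and 0, and GALNT14 13 and 58, and these libraries show the same line in another treatment.

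Genes of signalling and immune cell surface were among the calls higher in B412_mock. KCNN4, a calcium-activated potassium channel of blood cells, was at 19.7, 27.5 and 15.1 CPM in MT_mock and 76.6 and 52.1 CPM in B412_mock, a log2 difference of 1.71 ± 0.20 (SE, edgeR adjusted p = 0.00143, within sets 1.73 and 1.70). Both B412_mock values lay above all 3 of MT_mock. LAT, the adaptor that links the T cell receptor to its effectors, was at 5.86, 3.81 and 4.64 CPM against 17.0 and 17.0 CPM (log2 difference 1.82 ± 0.28, adjusted p = 0.00662, within sets 1.84 and 1.76). RASGRP4, a Ras exchange factor of myeloid and mast cells, was at 2.22, 1.87 and 3.39 CPM against 7.07 and 21.7 CPM (2.17 ± 0.34, adjusted p = 0.0076, within sets 1.75 and 2.55). FCER1G, the signalling chain shared by Fc receptors, was at 0.404, 1.66 and 2.14 CPM against 4.55 and 11.2 CPM (2.26 ± 0.51, adjusted p = 0.0433, within sets 2.27 and 2.24). In LAT the replicates of a line were close, while RASGRP4 and FCER1G were higher in set 2 of B412_mock; none of the 3 overlapped between lines. IL18, a cytokine that is stored as a precursor and released after caspase cleavage, was at 27.9, 24.5 and 27.2 CPM against 62.0 and 66.1 CPM (1.27 ± 0.19, adjusted p = 0.00622, within sets 1.26 and 1.20). MZB1, an endoplasmic reticulum protein of B and plasma cells, was at 13.1, 25.7 and 7.37 CPM against 105 and 23.8 CPM (2.15 ± 0.31, adjusted p = 0.00532, within sets 2.53 and 1.6). MZB1 was higher in B412_mock within each set, but B412_mock replicate 2 lay below MT_mock replicate 2. The 4 B cell markers summed to 22.7 to 48.4 CPM in MT_mock and 13.9 to 23.6 CPM in B412_mock, with MS4A1 at 0 in all 5 libraries. Of the 3 tested B cell markers 2 were positive and 1 was negative. Their median log2 difference was 0.42, with 0.95 within set 1 and 0.08 within set 2. Of these, CD79A, a signalling chain of the B cell receptor, was at 42.6, 20.6 and 15.3 CPM against 5.81 and 5.49 CPM (-2.11 ± 0.40, adjusted p = 0.0197, within sets -2.30 and -1.53). NCAM1, the neural cell adhesion molecule that also marks NK cells, was at 32.5, 35.3 and 42.8 CPM against 66.7 and 105 CPM (1.09 ± 0.16, adjusted p = 0.00605, within sets 1.00 and 1.22). The 3 NK cell markers summed to 55.8 to 90.1 CPM in MT_mock and 134 to 153 CPM in B412_mock, with KLRD1 at 0 in all 5 libraries. The part of B or NK cells in these results was not tested, and in bulk libraries a change in the number of cells and a change in RNA per cell cannot be told apart. CD79A lost the call without B412_mock replicate 1 (adjusted p = 0.487) or 2 (0.144). Without B412_mock replicate 1 all 7 of the genes called higher lost it (adjusted p 0.0866 to 0.399), without B412_mock replicate 2 all but KCNN4 and MZB1 did (0.0821 to 0.401), and without MT_mock replicate 3 FCER1G did (0.111).

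Other genes called higher had varied functions. UROC1, the urocanase of histidine breakdown, was at 0.269, 0.624 and 0.295 CPM in MT_mock and 23.6 and 13.0 CPM in B412_mock, differences of 5.43 and 4.81 on the log2 scale within set 1 and set 2. PHACTR3, which binds actin and protein phosphatase 1, was at 2.36, 1.94 and 1.84 CPM against 22.9 and 24.0 CPM (log2 difference 3.58 ± 0.33 SE, edgeR adjusted p = 0.000218, within sets 3.36 and 3.52). Both were low in each MT_mock library and free of overlap. TNNT1, the troponin T of slow muscle fibres, was at 70.9, 78.6 and 14.0 CPM against 265 and 81.6 CPM (2.04 ± 0.20, adjusted p = 0.000399, within sets 1.85 and 2.46). CSRP3, a LIM protein of striated muscle, was at 8.76, 14.7 and 1.69 CPM against 48.7 and 20.9 CPM (2.62 ± 0.34, adjusted p = 0.00302, within sets 2.11 and 3.44). TNNT1 and CSRP3 were lower in set 2 of each line, and the difference between lines was seen in both sets. Other muscle genes were among the calls lower in B412_mock, so this pair does not stand for muscle genes as a group. SREBF1, the transcription factor that drives fatty acid synthesis, was at 188, 110 and 96.2 CPM against 352 and 211 CPM (1.18 ± 0.19, adjusted p = 0.00959, within sets 1.31 and 1.06). NOG, a secreted antagonist of bone morphogenetic proteins, was at 7.81, 5.41 and 5.23 CPM against 21.8 and 20.2 CPM (1.83 ± 0.28, adjusted p = 0.00621, within sets 1.75 and 1.84). LGALS3BP, a secreted glycoprotein that binds galectins, was at 1.62, 2.15 and 3.61 CPM against 19.2 and 18.5 CPM (2.91 ± 0.38, adjusted p = 0.00302, within sets 3.29 and 2.23). The lines did not overlap in any of these 3. CDK5R1, the activator of the kinase CDK5, was at 0.876, 0.485 and 6.63 CPM against 7.77 and 30.7 CPM (2.79 ± 0.39, adjusted p = 0.0041, within sets 3.34 and 2.11). Of 9 tested S100 genes, small calcium-binding proteins, 8 were positive, and the median log2 difference was 0.60. The negative member had the largest difference in size, -3.72, and was not called. The 2 called, beside 2.35% of all tested genes, were S100A4 (0.78 ± 0.16, adjusted p = 0.0254, within sets 0.92 and 0.58) and S100P (0.97 ± 0.22, adjusted p = 0.0443, within sets 0.96 and 0.99), both higher. UROC1, PHACTR3, TNNT1 and CSRP3 were called in each fit that left out a library. Without B412_mock replicate 1 the other 6 lost the call (adjusted p 0.0866 to 0.828), and without B412_mock replicate 2 SREBF1, NOG, S100A4 and S100P did (0.0834 to 0.337). S100A4 and S100P also lost it without MT_mock replicate 2 (0.0681 to 0.0867), and S100P without MT_mock replicate 3 (0.111) or the first GSK126 library (0.0588).

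Adhesion molecules, receptors and cytokines were among the calls lower in B412_mock. ITGB2, the beta chain of the leukocyte integrins, was at 488, 495 and 1200 CPM in MT_mock and 123 and 125 CPM in B412_mock (log2 difference -2.54 ± 0.30 SE, edgeR adjusted p = 0.0041). It differed by -1.98 within set 1 and by -3.35 within set 2, where the MT_mock library was the high one. Its antisense neighbour ITGB2-AS1 was called lower as well (-3.12), and the libraries do not mark the strand, so the reads of the pair cannot be told apart. CD93, a lectin-like receptor of monocytes and endothelium, was at 182, 151 and 360 CPM against 37.7 and 104 CPM (-2.03 ± 0.18, adjusted p = 0.000218, within sets -2.11 and -1.86). IL20RB, a chain of the receptors for IL20-family cytokines, was at 40.7, 52.2 and 55.9 CPM against 4.16 and 1.86 CPM (-4.06 ± 0.36, adjusted p = 0.000218, within sets -3.41 and -4.87). EMILIN2, an extracellular matrix glycoprotein, was at 7.41, 13.7 and 27.9 CPM against 0.707 and 2.97 CPM (-3.62 ± 0.45, adjusted p = 0.00209, within sets -3.58 and -3.24). In all 4 genes each B412_mock library lay below every MT_mock library. IL32, a proinflammatory cytokine, was at 184, 247 and 142 CPM against 92.5 and 57.8 CPM (-1.28 ± 0.18, adjusted p = 0.0041, within sets -1.18 and -1.37). TNFSF13B, the B cell survival factor BAFF, was at 457, 218 and 243 CPM against 136 and 96.7 CPM (-1.33 ± 0.26, adjusted p = 0.0228, within sets -1.20 and -1.40). SEMA4A, a semaphorin with roles in immune cells, was at 14.3, 14.3 and 25.1 CPM against 5.34 and 9.65 CPM (-1.43 ± 0.28, adjusted p = 0.0215, within sets -1.38 and -1.44). These 3 showed no overlap either. ITGB2, CD93, IL20RB and EMILIN2 were called in each fit that left out a library. IL32, TNFSF13B, SEMA4A and ITGB2-AS1 lost the call without B412_mock replicate 1 (adjusted p 0.117 to 1) or replicate 2 (0.0811 to 0.3), and the last 3 of them without MT_mock replicate 3 (0.0533 to 0.219). SEMA4A and ITGB2-AS1 lost it without MT_mock replicate 2 (0.063 to 0.136), and TNFSF13B without either GSK126 library (0.0912 and 0.1).

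**Figure D2:**
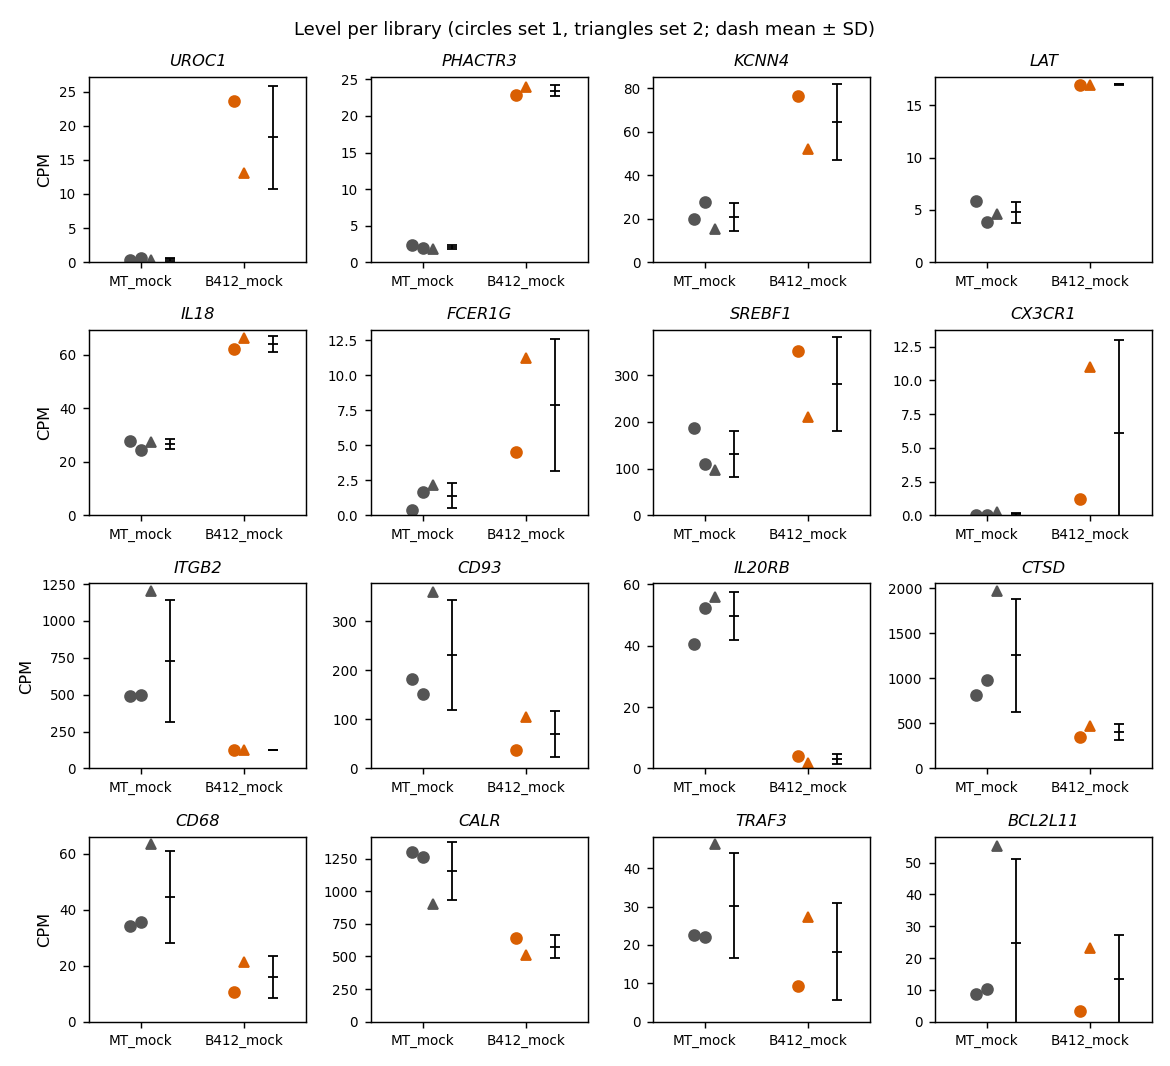
Level in CPM of 16 called genes in each library, on axes that start at 0, with MT_mock in grey and B412_mock in orange, circles for set 1 and triangles for set 2. The dash and bar to the right of each group give its mean ± SD (n = 3 and n = 2; a bar that would pass below 0 is cut at 0). ITGB2 stood at 123 and 125 CPM in B412_mock against 488 to 1200 CPM in MT_mock, while in TRAF3 and BCL2L11 set 2 of B412_mock lay above set 1 of MT_mock.

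Other genes called lower had varied functions too. CTSD, the lysosomal aspartic protease cathepsin D, was at 811, 984 and 1970 CPM against 345 and 467 CPM (log2 difference -1.69 ± 0.22 SE, edgeR adjusted p = 0.00354, within sets -1.35 and -2.15). HOMER3, a scaffold of calcium signalling, was at 328, 209 and 146 CPM against 61.7 and 48.6 CPM (-1.93 ± 0.22, adjusted p = 0.00108, within sets -2.06 and -1.66). CTDSPL, a phosphatase that acts on RNA polymerase and on the retinoblastoma protein, was at 33.7, 41.7 and 29.4 CPM against 8.48 and 8.46 CPM (-2.02 ± 0.25, adjusted p = 0.00209, within sets -2.10 and -1.85). None of these 3 overlapped between the lines. CYP46A1, the enzyme that hydroxylates cholesterol in brain, was at 12.9, 8.53 and 12.3 CPM against 0.314 and 0 CPM (-6.12 ± 0.76, adjusted p = 0.00209, within sets -4.54 and -6.37). TP53INP2, which acts in autophagy, was at 15, 14.8 and 89.5 CPM against 3.06 and 11.9 CPM (-2.57 ± 0.34, adjusted p = 0.00305, within sets -2.21 and -2.97). DNAAF3 and WDR92, both needed to assemble the dynein arms of cilia, differed by -3.32 ± 0.40 (adjusted p = 0.00196, within sets -3.28 and -3.01) and -2.33 ± 0.28 (adjusted p = 0.00217, within sets -2.31 and -2.16). ATRN, a membrane protein known from pigmentation, was at 18.4, 21.6 and 105 CPM against 5.34 and 26.4 CPM (-1.97 ± 0.22, adjusted p = 0.00108, within sets -1.85 and -2.06). APLP2, a relative of the amyloid precursor protein, was at 363, 400 and 1010 CPM against 180 and 527 CPM (-1.03 ± 0.14, adjusted p = 0.00354, within sets -1.06 and -1.02). For ATRN and APLP2 the libraries of the lines overlapped across sets, and within each set B412_mock was lower. CYP46A1, DNAAF3 and ATRN were called in each fit that left out a library. Without B412_mock replicate 1 APLP2, HOMER3, CTDSPL, TP53INP2 and WDR92 lost the call (adjusted p 0.0577 to 0.221), and without B412_mock replicate 2 CTSD, APLP2 and TP53INP2 did (0.0642 to 0.0759).

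Gene lists and families, 36 and 41 in number, were described by their calls and medians and not tested. Over all tested genes 2.35% were called and the median was -0.01. The lysosomal list leaned lower: 24 of 27 tested members were negative, the median log2 difference was -0.53 (-0.40 within set 1 and -0.75 within set 2), and 4 were called, all lower. These were CTSD, the carboxypeptidase CTSA (-0.97 ± 0.19 SE, edgeR adjusted p = 0.0241, within sets -0.75 and -1.29), the membrane glycoprotein LAMP1 (-0.82 ± 0.18, adjusted p = 0.0388, within sets -0.61 and -1.09) and CD68. Granulocyte granule proteins had 12 of 13 members negative and a median of -1.17, with MPO, AZU1, RNASE2, RNASE3 and SRGN called lower. RNASE3, the eosinophil cationic protein, was at 14.7, 16.6 and 17.1 CPM against 2.51 and 7.35 CPM, and SRGN, the proteoglycan that packs granule proteases, fell less (-0.96 ± 0.21, adjusted p = 0.0355, within sets -0.99 and -0.96). The 5 granulocyte precursor markers summed to 3440 to 7610 CPM in MT_mock and 2140 to 3140 CPM in B412_mock, and none was at 0 throughout; the part of cells at another stage was not tested. NF-kappaB subunits and regulators had 16 of 21 members negative and a median of -0.55 (-0.22 and -0.79 within the sets). EdgeR called 3 of them, DESeq2 7 and limma-voom 1. TRAF3, the adaptor that restrains the noncanonical pathway, was at 22.5, 22.1 and 46.2 CPM against 9.26 and 27.2 CPM (-1.04 ± 0.23, adjusted p = 0.035, within sets -1.23 and -0.84). It was called lower beside RELB and NFKB2, the subunits of that pathway. Of these 12 called genes MPO was called in each fit that left out a library. Without B412_mock replicate 1 all but MPO and CTSD lost the call (adjusted p 0.128 to 0.844), and without B412_mock replicate 2 all but MPO and RNASE2 did (0.0618 to 0.483). Without MT_mock replicate 2 LAMP1, CTSA, RNASE3, SRGN, TRAF3 and NFKB2 lost it (0.0616 to 0.155), and without MT_mock replicate 3 LAMP1, CTSA, SRGN, TRAF3, NFKB2 and AZU1 did (0.0764 to 0.163).

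Some genes were the only edgeR call of their list. In the 4 lists below 1 call was 5.88%, 6.25%, 4.5% and 2.13% of the tested members, beside 2.35% of all tested genes. A single call does not set a list apart from that share. Among 17 tested genes of MHC class I presentation CALR, the chaperone calreticulin, was the only call, at 1300, 1260 and 903 CPM against 638 and 512 CPM (log2 difference -0.97 ± 0.13 SE, edgeR adjusted p = 0.0041, within sets -0.98 and -0.89). Among 16 BCL2 family genes it was BCL2L11, the apoptosis inducer BIM, at 8.62, 10.3 and 55.3 CPM against 3.45 and 23.1 CPM (-1.34 ± 0.27, adjusted p = 0.027, within sets -1.39 and -1.33). DUSP6, a phosphatase that turns off ERK, was the only call of 22 immediate early genes (-1.35 ± 0.22, adjusted p = 0.00949, within sets -1.51 and -1.12), and RAB32, a small GTPase of lysosome-related organelles, the only one of 47 Rab genes (-1.09 ± 0.18, adjusted p = 0.0106, within sets -1.03 and -1.18). In these 4 lists, in the order given, DESeq2 called 3, 2, 2 and 3 genes, and limma-voom 1 in each. All 4 lost the call without B412_mock replicate 1 (adjusted p 0.151 to 0.592) and without B412_mock replicate 2 (0.0834 to 0.225), and BCL2L11 also without MT_mock replicate 2 (0.0793) or 3 (0.158).

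**Figure D3:**
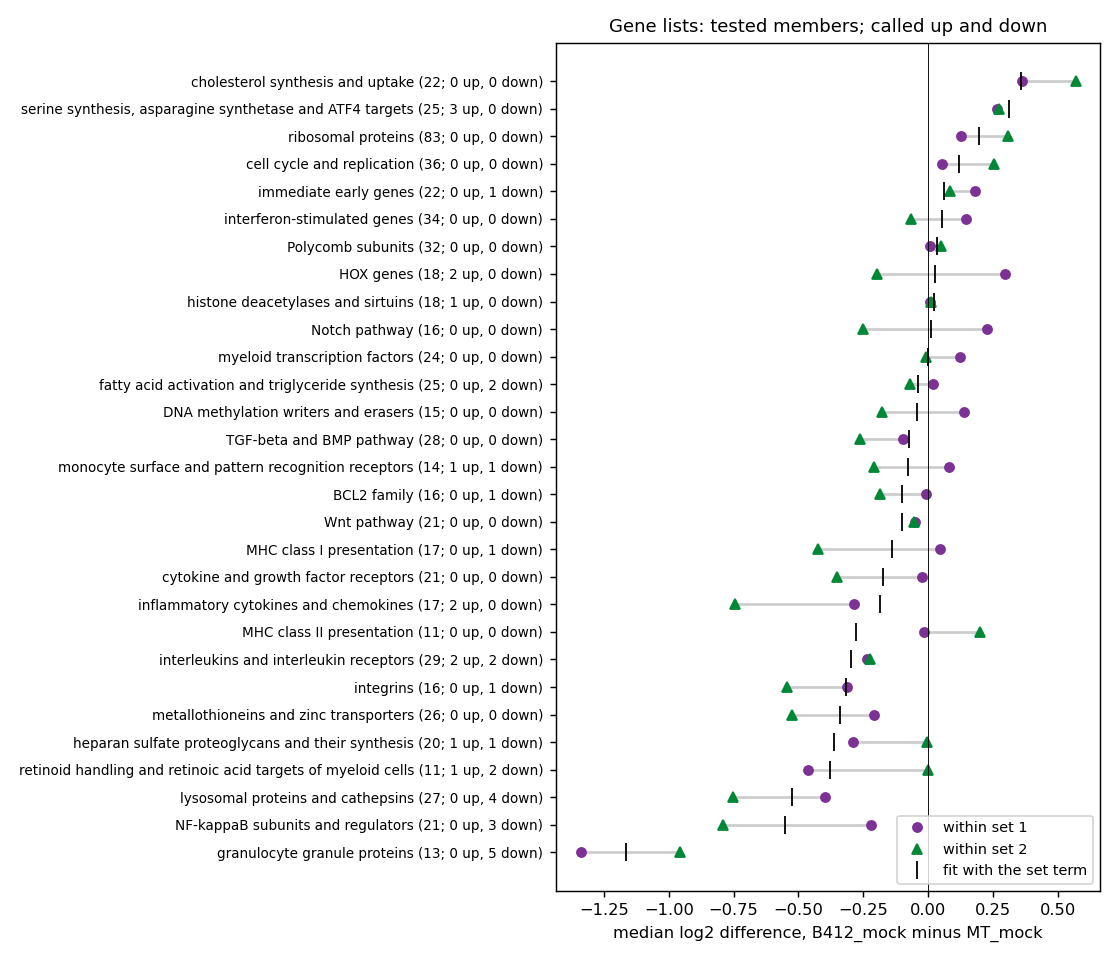
Median log2 difference between the lines of 29 gene lists, within set 1 (circles), within set 2 (triangles) and in the fit with the set term (bars). The counts after each name are the tested members and the members called higher and lower. The granule list has the lowest median in the fit, at -1.17, and lies at -1.34 in set 1 and -0.96 in set 2, and cholesterol synthesis has the highest, at 0.36.

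Other lists leaned higher or held calls in both directions. Their calls stand beside the 2.35% called over all tested genes, and no list was tested against that share. Of 22 cholesterol synthesis genes 16 were positive, with a median of 0.36; edgeR called 0, with 4 at an unadjusted p under 0.05, DESeq2 2 and limma-voom 0. Of 83 ribosomal protein genes 77 were positive, with a small median of 0.20; edgeR called 0, with 23 at an unadjusted p under 0.05, DESeq2 2 and limma-voom 0. Their share of all counts was 10.7 to 11.7% in set 1 and 6.58 to 8.48% in set 2. Genes of serine and asparagine synthesis and other ATF4 targets numbered 25, of which 19 were positive and 3 were called, all higher; their median was 0.31. Metallothioneins and zinc transporters had 21 of 26 members negative and a median of -0.34; edgeR called 0, with 4 at an unadjusted p under 0.05, DESeq2 2 and limma-voom 0. Interleukins and their receptors had 2 calls higher (IL18, and the receptor chain IL17RE at 1.38 ± 0.30 SE, edgeR adjusted p = 0.0348, within sets 1.21 and 1.87) and 2 lower (IL32 and IL20RB) of 29. Of 20 heparan sulfate proteoglycan genes, 15 were negative; GPC4 rose, and NDST1, which sulfates the chains, fell (-0.84 ± 0.19, adjusted p = 0.047, within sets -0.91 and -0.82). Polycomb subunits (32 tested), interferon-stimulated genes (34) and cell cycle genes (36) had medians of 0.04, 0.05 and 0.12. EdgeR called 0 in each, with 2, 6 and 6 at an unadjusted p under 0.05, limma-voom called 0 in each, and DESeq2 called 0, 1 and 1. The Polycomb list does not hold AUTS2, which was called higher. Of 24 myeloid transcription factors 12 were positive, and edgeR called 0, with 3 at an unadjusted p under 0.05, DESeq2 2 and limma-voom 0. Of 354 ZNF genes 2 were called, both higher, which is 0.565%. IL17RE and NDST1 lost the call without any 1 of MT_mock replicate 2 (adjusted p 0.125 to 0.133), MT_mock replicate 3 (0.0815 to 0.183), B412_mock replicate 1 (0.617 to 0.884) or B412_mock replicate 2 (0.215 to 0.276).

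Called genes were unevenly spread over the chromosomes. Of 13521 tested genes 13226 were matched to RefSeq (GRCh38.p14), which was used here only for the order of genes. On chromosome 15, 44 of 456 tested genes were called (9.65%), 32 higher and 12 lower, and its median log2 difference was 0.22 (0.23 within set 1 and 0.14 within set 2). On chromosome 20, 18 of 365 were called (4.93%), 3 higher and 15 lower. Over all tested genes the share was 2.35%. On the other chromosomes 0.92% to 3.08% were called, with chromosome 6 among them at 2.65% (19 of 716, 2 higher and 17 lower). Chromosome 15 thus held 32 of the 115 genes called higher in B412_mock.

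The shift reached whole stretches of neighbouring genes. Genes with a mean log2 CPM over 3 were taken in order along each chromosome in 355 windows of 25, and a window was counted as shifted where its median difference was at least 0.25 in size, in the same direction, within both sets. There were 13 such windows, 5 higher and 8 lower in B412_mock, on chromosomes 4, 6, 15 and 20, and none with opposite shifts in the sets. The medians of the other windows lay between -0.29 and 0.22. In the shifted windows 40 of 325 genes were called (12.3%), against 1.96% in the others; the windows were chosen by differences in the same libraries, so the higher share follows from the choice. With those 325 genes left out and the remainder fitted anew, 247 of 13179 genes were called, 82 higher and 165 lower, and all 247 were among the 318. The number of shifted windows was 25 with windows of 15 genes, which added chromosomes 1 and 14, and 6 with windows of 50. It was 21 with no minimum level, which added chromosomes 7, 11, 14, 17 and 19 and 1 window with opposite shifts.

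Chromosome 15 held stretches on both sides of 0. From NIPA2 to EID1, 100 genes had a median log2 difference of 0.52 (0.52 within set 1 and 0.53 within set 2), 87 of them were positive, and the median corresponds to 1.44 times the MT_mock level. The genes that follow, SECISBP2L to PIGB, had a median of -0.60 (-0.65 and -0.61), with 24 of 25 negative. SLC27A2, unread in B412_mock, lies within the span of that stretch. Farther along, MFGE8 to SLCO3A1 had a median of 0.53 (0.56 and 0.60), with 24 of 25 positive and 7 called. On chromosome 6, MTO1 to FYN had a median of -0.48 (-0.47 and -0.43) over 75 genes, 70 of them negative. On chromosome 20, C20orf96 to FASTKD5 and GZF1 to ASXL1 had medians of -0.54 and -0.59, each with 24 of 25 negative, and on chromosome 4 ACOX3 to DCUN1D4 had -0.31 with 45 of 50 negative. The windows were chosen for a shift in the same direction within both sets, so the likeness of the set medians follows from the choice. B412_GSK126 differed from B412_mock in the same stretches by medians of -0.22 to 0.17, and the cause of the stretches was not tested.

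Called genes that follow each other among the tested genes of a chromosome formed 16 runs with 35 genes, and in 8 of the runs the genes overlap in the annotation, so that reads can be shared. In the stretch of chromosome 15 that was higher, MTMR10, a myotubularin-related protein, and KLF13, a Krueppel-like factor, rose together (log2 differences 1.10 and 0.77). So did the run of GOLGA8A, GOLGA8B, the splicing helicase AQR and ZNF770. ZNF770 was at 20.3, 15.5 and 20.7 CPM against 44.0 and 68.8 CPM (1.46 ± 0.20 SE, edgeR adjusted p = 0.00354, within sets 1.32 and 1.65). GOLGA8A and GOLGA8B are near copies whose reads may be split between them, and their values (1.28 and 1.29) are uncertain. At the change of direction, EID1 (-0.70) and SECISBP2L (-0.99) fell, and farther on PIGB (-1.18) and CCPG1, an endoplasmic reticulum receptor for autophagy, which was at 243, 288 and 460 CPM against 111 and 160 CPM (-1.37 ± 0.19, adjusted p = 0.0041, within sets -1.23 and -1.59). DYX1C1-CCPG1 is a readthrough symbol of the same locus. In the last stretch the DNA repair genes FANCI (0.96) and BLM (1.19) and the mitochondrial polymerase POLG (0.79) rose, with BLM at 26.7, 24.7 and 17.5 CPM against 51.4 and 54.0 CPM. The lines did not overlap for ZNF770, CCPG1 or BLM. On other chromosomes the runs included SEZ6L2 with ASPHD1 (-1.18 and -1.38), EBF4 with the carboxypeptidase-like CPXM1 (-1.78 and -3.29), CTSA with the phospholipid transfer protein PLTP (-0.97 and -1.23), and HDAC9 with TWISTNB (7.90 and 1.20). EBF4 and CPXM1 lie within the span of the lower stretch from C20orf96 to FASTKD5. Some genes of runs not listed above, ITGB2 and DNAAF3 among them, were called in each fit that left out a library. Of the run genes listed above, HDAC9 was called in each as well. The other 21 lost the call without B412_mock replicate 1 (adjusted p 0.0866 to 0.982), and all of them but TWISTNB without B412_mock replicate 2 (0.0618 to 0.493). Without MT_mock replicate 2, 13 lost it (0.059 to 0.133), without MT_mock replicate 3, 7 did (0.0503 to 0.225), and GOLGA8B also did without the first GSK126 library (0.051).

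Whether the difference between the lines itself differed between the sets was tested with an interaction term, which leaves 1 residual degree of freedom. EdgeR called 1 gene of 13521 (0.0074%), with 300 at an unadjusted p under 0.05.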

How the data were processed

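Per the labels' protocols, SMART-Seq v3 cDNA from total RNA was sheared and made into NEBNext Ultra DNA libraries, which do not mark the strand; molecular identifiers are not named. The tools FastQC, featureCounts and Subread and the build hg19 are listed per the submitters' processing notes; what each did, and the annotation, is not given in the sources used here. Raw counts were deposited by the authors per gene symbol, 1 table per group and 1 column per replicate, with no normalization. Groups and replicates were taken from the titles.

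Genes were filtered with filterByExpr (minimum count 10, minimum total 15), normalized by TMM and then tested in edgeR 4.0.16 (R 4.3.3) with the robust quasi-likelihood F test, two-sided, in one fit of all 7 libraries with group and library set, 3 residual degrees of freedom, and Benjamini-Hochberg adjustment over all genes tested. The interaction of line and set was tested in a fit of its own. Within-set differences came from log2 CPM with a prior count of 2, and SE is the log2 difference over the square root of F. Ratio intervals are exact binomial at 95%. The scripts were tested on simulated data. Alternatives were no set term, a replicate block, RLE and upper-quartile scaling, DESeq2 1.42.0, limma-voom (limma 3.58.1), no filter, a stricter filter, the 5 libraries alone and each library left out; alternatives for the windows, and the fit without their genes, were added after the data were seen.

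The members, lists and sets were chosen with earlier results of these data known. Genes were named by rule: in each direction the 20 called genes with the lowest p, at least 10 CPM in the higher line and the same sign in both sets; genes with at least 100 counts in one line and at most 3 in the other; called members of the lists and families; members of runs of neighbouring called genes; genes called in the interaction test; those with the largest opposite differences in the sets; and ZBTB16, RARA and EZH2. Not every gene so named is given with values, and some, the gene called in the interaction test among them, are not reported here. The lists had 752 entries, of which 751 matched a symbol of the tables. Promoters and gene order came from RefSeq (GRCh38.p14), a later build than that of the counts, and no coordinate was taken from the count tables.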

Additional observations from a re-analysis of the deposited data

How the results depend on the processing

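The number of called genes, 318, became 0 in edgeR without the set term and 0 with the replicate block in place of the set (343 and 890 at an unadjusted p under 0.05). The replicate numbers cross the sets, since MT_mock replicate 2 is in set 1 and B412_mock replicate 2 in set 2. Deviations from the group means correlated at 0.664 for number 1 and -0.634 for number 2. B412_mock has only 2 libraries, whose deviations mirror each other, so these values cannot show whether the replicates were paired. The number was 684 with DESeq2, 881 with no filter on low counts, and 33 to 587 with a library left out. RLE and upper-quartile scaling, limma-voom, the stricter filter, the 5 libraries alone and the fit without the genes of shifted windows gave 247 to 363. The interaction called 1 gene with TMM, with RLE scaling and with the stricter filter. Shifted windows numbered 13, and 25, 6 and 21 with 15 genes, 50 genes or no minimum level; the cause was not tested.

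Of 85 called genes named, 19 kept the call in all 7 fits that left out a library and 76 in all 7 other fits with the set term. With the replicate block the log2 difference turned to -0.45 for S100A4, 0.18 for NDST1, -0.76 for GOLGA8A, -1.0 for GOLGA8B and 0.34 for RARA. RARA also turned to 0.14 without the set term; with a library left out it lay between -0.15 and 0.053 (0.0018 without MT_mock replicate 1, 0.053 without B412_mock replicate 1). EZH2 lay between -0.31 and 0.042, the last without MT_mock replicate 2; neither was called in any of them, and the cause was not tested. Differences between levels under 3 counts per library, 0.202 to 0.236 CPM, were not detectable at this depth.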

Other observations

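Some genes differed in opposite directions within the sets, and the additive fit gives a single value for both sets. They were taken by the product of the 2 differences, so the values are a description. PIGW, an enzyme of GPI anchor synthesis, had -2.24 within set 1 and 1.22 within set 2 on the log2 scale. NBPF3 had -2.40 and 0.88. Neither was called by edgeR, with or without the interaction.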
